A study of Mus musculus with 20 samples.

Results

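The regions described here were KLF4 peaks called at day 5 with overexpressed JMJD3 and not in the FLAG control list, and that had no JMJD3 position next to them. They were selected on the peak calls themselves. A peak of the KLF4 list from JMJD3-overexpressing cells was kept when its midpoint had neither a KLF4 midpoint from FLAG control cells nor an anti-FLAG JMJD3 position within 400 bp. This kept 3982 of the 14391 peaks in the list (27.7%), and these are called JMJD3-cell-only sites below. Because the calls chose them, their absence from the FLAG list of 10655 peaks is not a result, and no p-value was computed over sites. Each list came from 1 library, so intervals cover counting error only. The KLF4 lists give no peak height, so a site that was just under the caller's threshold in FLAG cells cannot be told apart from one that was not bound there. Neighbouring sites are not independent, and no interval was adjusted for the number of measures compared.

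The study examined how the H3K27 demethylase JMJD3 acts while mouse embryonic fibroblasts (MEFs) are reprogrammed towards pluripotency by viral delivery of OCT4, SOX2, KLF4 and c-MYC (OSKM), called lentiviral in some labels and retroviral in the protocol. The KLF4 and JMJD3 libraries came from Jmjd3+/+ cells of strain C57BL/6J-OG2 at day 5 of OSKM, carrying in addition a FLAG vector, JMJD3 or FLAG-JMJD3. H3K27me3 lists were available for Jmjd3+/+ MEFs, for day 5 and day 10 OSKM cells with FLAG or JMJD3, and for the same 5 conditions in Jmjd3-/- cells of strain C57Bl6J, here WT and KO. By the labels genotype and strain therefore cannot be told apart. The study's text, however, describes its WT and KO fibroblasts as littermates lacking the OG2 reporter in another experiment, and which WT cells gave the H3K27me3 libraries was not settled here. OG2 cells carry a GFP reporter driven by Oct4 regulatory sequence. A second JMJD3 list came from WT OSKM cells given less KLF4 virus. By the study's figure legends, the reprogramming cells of these libraries started from early passage MEFs and were kept with vitamin C. The lists hold intervals and no expression values, so the labelled cell types could not be checked against marker genes.

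KLF4 is a zinc-finger transcription factor of the KLF/SP family that binds GC-rich CACCC and related elements in promoters and enhancers. H3K27me3 is deposited by Polycomb repressive complex 2, typically over CpG-rich promoters of silent developmental and lineage genes, and JMJD3 (the product of Kdm6b) is one of the enzymes that removes it. In fibroblast reprogramming, KLF4 is known for its part in switching on epithelial genes.

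The sequences below show the kinds of site the results turn on, as 100-base windows of the GRCm38 plus strand from RefSeq, with matches to the KLF motif in capitals. The motif searched was GGGTGTGG or GGGCGTGG on either strand, overlapping matches included. Ddah1, Afap1l2, Cerkl, 3110082J24Rik and Zfp174 were shown, after their values were seen, because they were 5 of the 6 sites with the most matches in the central 200 bp (3 to 5 each) among sites outside UTRs and under 20% soft-masked. Ddah1, Zfp174 and 3110082J24Rik were intronic, Afap1l2 named the nearest gene of an intergenic site, and Cerkl lay 186 bp into the gene. In the Zfp174, Ddah1, Afap1l2 and 3110082J24Rik windows the matches stood in repeats of a short unit.
Ddah1 (chr3:145786424-145786523): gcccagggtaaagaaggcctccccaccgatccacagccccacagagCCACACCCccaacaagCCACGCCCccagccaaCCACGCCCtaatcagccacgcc
Afap1l2 (chr19:57030780-57030879): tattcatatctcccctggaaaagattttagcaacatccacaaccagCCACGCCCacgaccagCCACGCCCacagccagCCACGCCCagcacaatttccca
Cerkl (chr2:79428625-79428724): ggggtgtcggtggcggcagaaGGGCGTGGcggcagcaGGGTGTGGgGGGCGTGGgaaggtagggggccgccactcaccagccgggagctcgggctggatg
3110082J24Rik (chr5:30120958-30121057): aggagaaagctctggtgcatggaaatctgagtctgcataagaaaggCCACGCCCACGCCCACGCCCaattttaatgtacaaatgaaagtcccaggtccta
Zfp174 (chr16:3851483-3851582): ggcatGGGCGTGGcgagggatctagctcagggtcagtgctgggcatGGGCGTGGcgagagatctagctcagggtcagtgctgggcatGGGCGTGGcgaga

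Tgfb3 and Rtn4rl2 were sites with 1 match. The Tgfb3 site lay 3671 bp upstream of the growth factor's TSS, with its nearest TSS that of Ift43. The Rtn4rl2 site lay in an exon and in an H3K27me3 peak of WT MEFs.
Tgfb3 (chr12:86082741-86082840): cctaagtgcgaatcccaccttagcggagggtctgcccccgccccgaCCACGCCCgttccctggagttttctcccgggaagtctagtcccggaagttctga
Rtn4rl2 (chr2:84872218-84872317): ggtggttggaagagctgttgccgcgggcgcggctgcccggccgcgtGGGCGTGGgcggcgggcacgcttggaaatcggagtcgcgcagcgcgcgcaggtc

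Spint1, Prok2, Pnma2 and Rtbdn were shown, also after their values were seen, as sites 85 to 1155 bp from a TSS, inside H3K27me3 peaks of WT MEFs and day 5 FLAG cells, that held no KLF match in the central 200 bp. Their windows of 100 bases, centred on the peak midpoint, held 7 to 11 CpG dinucleotides.
Spint1 (chr2:119237227-119237326): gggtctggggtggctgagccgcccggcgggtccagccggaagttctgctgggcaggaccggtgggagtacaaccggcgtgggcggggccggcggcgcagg
Prok2 (chr6:99726159-99726258): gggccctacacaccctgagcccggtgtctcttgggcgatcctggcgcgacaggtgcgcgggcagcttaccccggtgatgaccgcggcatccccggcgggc
Pnma2 (chr14:66910051-66910150): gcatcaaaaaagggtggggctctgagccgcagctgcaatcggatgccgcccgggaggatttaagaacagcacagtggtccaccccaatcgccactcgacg
Rtbdn (chr8:84945786-84945885): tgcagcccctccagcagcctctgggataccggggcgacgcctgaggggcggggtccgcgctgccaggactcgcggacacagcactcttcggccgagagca

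The JMJD3-cell-only sites were narrow. Their median width was 234 bp (quartiles 199 to 284 bp, longest 790 bp), against 329 bp (265 to 422 bp) for the 5733 sites called in both KLF4 lists without a JMJD3 position, here shared sites. The 1405 sites that were called only in JMJD3 cells but lay next to a JMJD3 position were similarly narrow (246 bp), while the 3271 sites in both lists next to JMJD3 were wide (353 bp). The mirror set, 1194 peaks of the FLAG list with neither a JMJD3-cell KLF4 midpoint nor a JMJD3 position, was narrowest at 207 bp. The smallest width in the JMJD3-cell list, 183 bp, was held by 467 JMJD3-cell-only sites (11.7%) and by 2.16% of shared sites. Width came from the calls that defined the sets and was the only size measure in the KLF4 lists, so it is given as a description. Of all JMJD3-cell peaks, 37.4% had no FLAG midpoint within 400 bp. The study itself, merging summits within 400 bp, reported nearly all KLF4 peaks as shared between the cell types. It described only a modest global rise in KLF4 binding with JMJD3. The reason for the unlike shares was not tested.

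**Figure D1:**
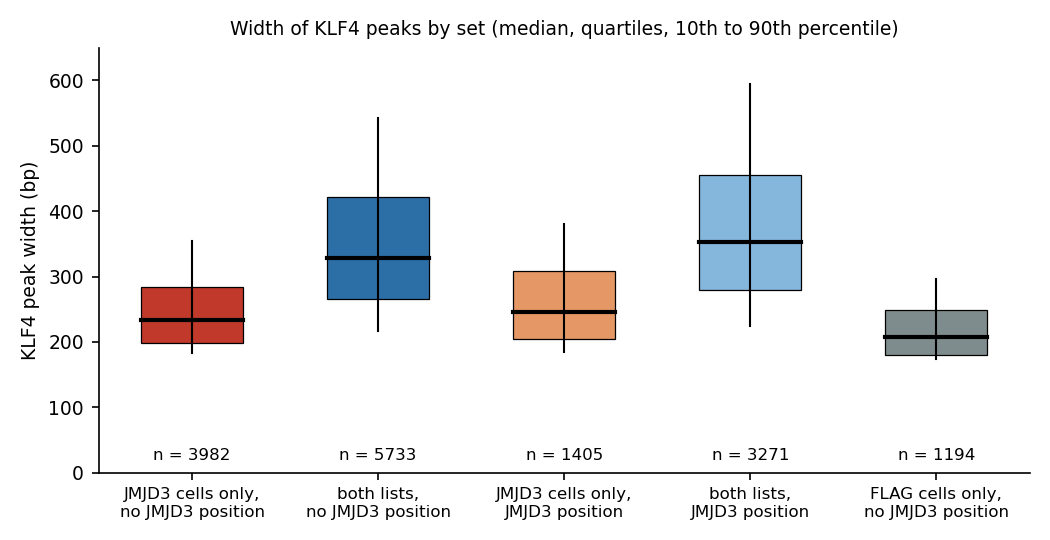
Width of KLF4 peaks (bp) in the 5 sets; thick lines are medians, boxes the quartiles and thin lines the 10th to 90th percentiles over peaks. The sites called only in 1 of the cell types had medians of 207 to 246 bp, and the sites in both lists medians of 329 and 353 bp.

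Few sites were near the selection limit. Peaks whose nearest FLAG KLF4 midpoint or JMJD3 position was 300 to 400 bp away, just outside the set, numbered 187, with a median width of 247 bp and a KLF motif in 14.4%. The 167 just inside, at 400 to 500 bp, had a median width of 227 bp and a motif in 16.8%. Those just outside and just inside were within 5 kb of a TSS in 89.8% and 83.8%, against 62.8% of all JMJD3-cell-only sites. A JMJD3 position lay within 1 kb of 321 sites (8.06%) and a FLAG KLF4 midpoint within 1 kb of 268 (6.73%), and 2 sites overlapped a FLAG interval at an edge. Within 5 kb, 13.6% had a FLAG KLF4 midpoint, and within 50 kb 59.0%.

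Most of the sites lay near genes, as did KLF4 peaks of the whole JMJD3-cell list. The midpoint of 2014 sites (50.6%) was within 1 kb of an annotated transcription start site (TSS). That of 2501 (62.8%, 95% Wilson interval 61.3 to 64.3%) was within 5 kb. Over all 14391 peaks of the list, which include the sites, the shares were 53.3% and 63.9%. Beyond 1 kb, 1058 sites (26.6%) were intronic, 145 (3.64%) exonic and 765 (19.2%) intergenic. Shared sites were within 5 kb of a TSS more often, in 68.6% (difference -5.74 percentage points, 95% Newcombe interval -7.67 to -3.82), and FLAG-only sites less often, in 52.0% (10.8 points, 7.59 to 14.0). Among sites called only in JMJD3 cells next to a JMJD3 position the share was 61.1%, and its difference from the JMJD3-cell-only sites had an interval of -1.27 to 4.64 points. The difference from shared sites changed when width was taken into account. In the wider part of the KLF4 list, above its median width, the 845 JMJD3-cell-only sites were closer to TSSs than shared sites (77.4% within 5 kb, difference 3.76 points, 0.499 to 6.82). By quartile of width, 56.9% of JMJD3-cell-only and 55.1% of shared sites were within 5 kb at 183 to 229 bp, 61.8% and 62.3% at 230 to 295 bp, 75.4% and 65.4% at 296 to 386 bp, and 82.0% and 81.5% at 387 bp or more, so only the third quartile showed a clear difference.

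KLF motifs were concentrated at the middle of these sites. A match was present within the central 200 bp of 1187 sites (29.8%, 28.4 to 31.2%), against 2.98% of windows of that length 2 kb to either side, a ratio of 10.0 (8.76 to 11.5). The flanking windows were less GC-rich, with a mean GC of 45.8% against 58.8% at the sites, and the part of base composition in this ratio was not tested. In sites with a match, the closest one was a median of 30 bp from the midpoint, and 891 of 1187 (75.1%) had one within 50 bp. One match was found in 998 sites, 2 in 130 and 3 or more in 59. The form with T, GGGTGTGG, occurred in 18.3% and the form with C, GGGCGTGG, in 13.0%. Over all KLF4 peaks of the JMJD3-cell list, which include these sites, 28.2% held a match, 9.94 times the flank share (9.25 to 10.7).

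**Figure D2:**
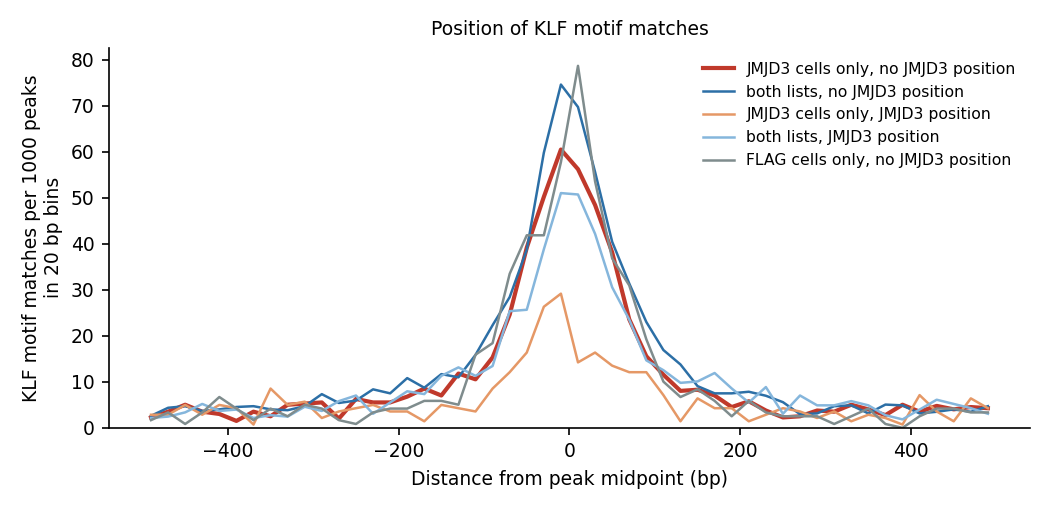
KLF motif matches per 1000 peaks in 20 bp bins, by distance from the peak midpoint (bp), for the 5 sets. Each set peaks near the midpoint; the sites called only in JMJD3 cells next to a JMJD3 position have the lowest peak.

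The motif share differed most from that of the sites called only in JMJD3 cells next to a JMJD3 position. Shared sites held a match in 31.6% (difference -1.83 points, -3.69 to 0.0364) and FLAG-only sites in 35.0% (-5.20 points, -8.29 to -2.18). Sites called only in JMJD3 cells next to a JMJD3 position held one in 14.9%, a difference of 14.9 points (12.5 to 17.1), and sites in both lists next to JMJD3 in 26.0% (3.82 points, 1.75 to 5.88). Counted over the whole peak, the difference from the last set was -1.67 points (-3.85 to 0.505). Taking peaks of equal width changed the comparison with shared sites. Over width quartiles the mean difference was -6.26 points. The shares in JMJD3-cell-only and shared sites were 33.4% and 32.6% at 183 to 229 bp, 29.7% and 38.0% at 230 to 295 bp, 24.3% and 33.0% at 296 to 386 bp, and 16.8% and 25.5% at 387 bp or more.

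Promoter-proximal and distal sites differed in motif content. Within 1 kb of a TSS, 360 of 2014 JMJD3-cell-only sites (17.9%) held a KLF match, against 25.1% of shared sites (-7.27 points, -9.47 to -5.02). The background is the share of RefSeq promoters with a match in the 200 bases before the start, which was 6.74% of 32851. Beyond 1 kb, the shares were 43.1%, 41.9% and 40.4% at 1 to 5 kb, 5 to 50 kb and over 50 kb for JMJD3-cell-only sites, and 39.3%, 41.9% and 38.1% for shared sites. All 3 of these differences had intervals that included 0, the narrowest being -3.69 to 3.67 points at 5 to 50 kb.

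**Figure D3:**
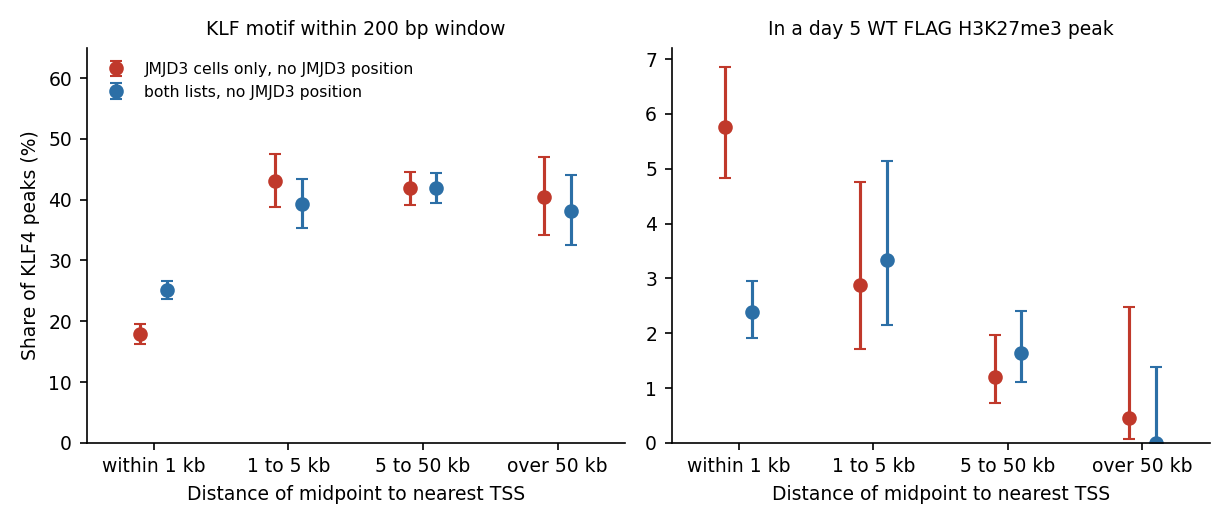
Share of KLF4 peaks (%) with a KLF motif (left) and inside a day 5 WT FLAG H3K27me3 peak (right), by distance to the nearest TSS, for JMJD3-cell-only sites (red) and shared sites (blue), with 95% Wilson intervals. Within 1 kb the motif was at 17.9% and 25.1% and H3K27me3 at 5.76% and 2.38%; the intervals of both overlap in the other classes.

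Words of other factors were searched on both strands in the same windows, and a word may overlap another. The GC box GGGGCGGGG, an element bound by SP factors, occurred in 11.1% of JMJD3-cell-only and 14.5% of shared sites (-3.36 points, -4.68 to -2.01). FLAG-only sites were at 7.54%, and the sites next to JMJD3 at 8.11% (JMJD3 cells only) and 11.6% (both lists). The AP-1 word TGANTCA, bound by FOS and JUN dimers, occurred in 6.15% of JMJD3-cell-only and 3.96% of shared sites (2.19 points, 1.31 to 3.11). In JMJD3-cell-only sites this was only 1.13 times the flank share (0.972 to 1.32). FLAG-only sites were at 5.95% (0.206 points, -1.44 to 1.65). The sites next to JMJD3 were higher, at 8.68% (JMJD3 cells only) and 7.64% (both lists). The ETS word CCGGAAG was at 6.71%, below shared sites by an interval of -2.54 to -0.427 points, and 6.51 times its flank share (5.10 to 8.32). FLAG-only sites held it in 4.44%, and the sites next to JMJD3 in 4.77% (JMJD3 cells only) and 6.14% (both lists). The OCT4-type octamers ATGCAAAT and ATGCTAAT were found in 1.51% of the sites and 1.05 times as often as in the flanks (0.772 to 1.44). The SOX words AACAATG and AACAAAG were in 6.63%, 0.877 times the flank share (0.763 to 1.01). The intervals of both ratios, for the words of the reprogramming partners OCT4 and SOX2, included 1.

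A small part of the sites lay in H3K27me3 peaks, which the deposited lists give as intervals of 1000 bp. In WT MEFs 127 of 3982 sites overlapped one (3.19%, 2.69 to 3.78%), and in day 5 WT FLAG cells 146 (3.67%, 3.13 to 4.30%), against backgrounds of 2.06% and 2.08% of all KLF4 peaks of the JMJD3-cell list. Shared sites were at 1.97% and 2.16%, with intervals of the difference of 0.580 to 1.90 and 0.825 to 2.22 points. Sites called only in JMJD3 cells next to a JMJD3 position were at 1.49% and 0.854%, and FLAG-only sites at 1.51% and 1.26%. Each of these sets was below the JMJD3-cell-only sites, with intervals of the difference above 0. Of the 127 sites marked in MEFs, 91 (71.7%) were also marked in day 5 FLAG cells. Marked in both were 2.29% of JMJD3-cell-only and 1.36% of shared sites, beside the 3.19% and 1.97% marked in MEFs. A similar part of the MEF-marked sites of each set was thus also marked at day 5.

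The difference from shared sites lay close to promoters. Within 1 kb of a TSS, 4.77% of JMJD3-cell-only and 1.99% of shared sites were in a WT MEF H3K27me3 peak (2.77 points, 1.77 to 3.88), and 5.76% and 2.38% in a day 5 WT FLAG peak (3.38 points, 2.28 to 4.58). In the classes beyond 1 kb every interval of the difference included 0. Averaged with equal weight over 4 distance classes, the differences were 0.672 and 0.731 points. Averaged over width quartiles they were 1.89 and 2.58 points, so they were not smaller among peaks of like width.

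**Figure D4:**
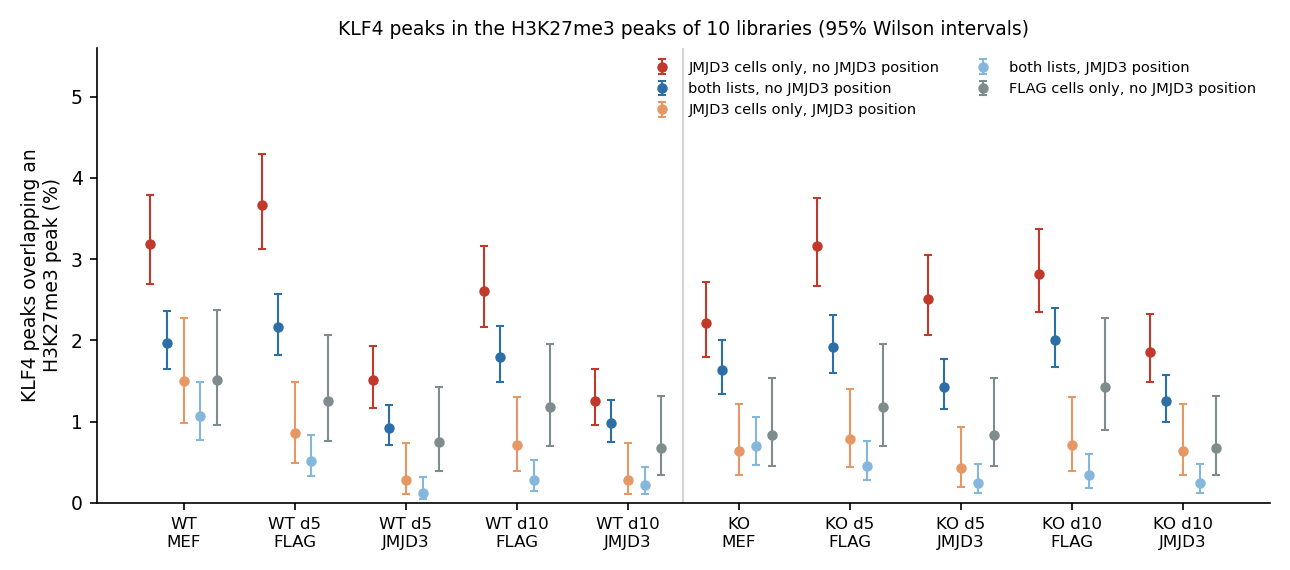
Share of KLF4 peaks (%) that overlap an H3K27me3 peak in each of 10 libraries (d5 and d10, days of reprogramming), for the 5 sets, with 95% Wilson intervals. JMJD3-cell-only sites (red) have the highest share in each library, between 1.26% and 3.67%. Shares were lower with JMJD3 than with FLAG in each pair for these sites and for all KLF4 peaks of the list (3.67% to 1.51% and 2.08% to 0.841% at day 5 in WT).

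Fewer of the sites were marked with JMJD3 than with FLAG in each pair, as were fewer KLF4 peaks of the whole JMJD3-cell list, which includes the sites. In WT cells the count went from 146 to 60 at day 5 and from 104 to 50 at day 10. In KO cells it went from 126 to 100 at day 5 and from 112 to 74 at day 10, and 88 sites were marked in KO MEFs. Over all 14391 KLF4 peaks the counts went from 299 to 121 and from 226 to 117 in WT, and from 262 to 196 and from 248 to 163 in KO, at day 5 and day 10. Nothing particular to the JMJD3-cell-only sites is read from the lower counts. The H3K27me3 lists themselves differed in length, with 0.788 and 0.593 times as many peaks with JMJD3 as with FLAG in WT at day 5 and day 10, and 1.16 and 0.907 times as many in KO. Of the 146 sites marked in day 5 WT FLAG cells, 59 (40.4%) were also in a peak of JMJD3 cells. Of the 60 sites marked in day 5 WT JMJD3 cells, 1 was not marked with FLAG.

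The loss of H3K27me3 peaks that held such a site was compared with that of the rest of each list, and at day 5 the direction depended on how the peaks were compared. At day 5 in WT cells, 59 of 143 FLAG-cell H3K27me3 peaks holding a site had no overlapping peak with JMJD3 (41.3%, 33.5 to 49.5%), and 46.4% of all 6428 peaks were lost. Against the 6285 other peaks the difference was -5.22 points (-13.1 to 3.07), and with both lists cut by score to equal length it was 0.137 points (-7.76 to 8.71). In KO cells 30 of 122 were lost (24.6%, with 33.8% for all), a difference of -9.41 points (-16.3 to -0.977). At day 10, 51 of 104 were lost in WT (49.0%, with 59.6% for all) and 28 of 112 in KO (17.9 to 33.8%, with 44.4% for all). The day 10 differences were -10.8 points (-20.3 to -1.21) in WT and -19.8 points (-27.0 to -11.0) in KO. The peaks with a site had higher scores, with a median of 27.2 against 13.0 at day 5 in WT, and high-scoring peaks were lost less. Within score quartiles, a comparison added after the data were seen, day 5 WT peaks with a site were lost in 12 of 69 in the highest quartile (17.4%, 10.2 to 28.0%) against 7.09% of others, and the mean difference over 4 quartiles was 11.4 points. Peaks holding shared sites gave 16.2 points in that comparison, and the mean for peaks with JMJD3-cell-only sites was 4.25 points at day 5 in KO, -1.62 at day 10 in WT and -11.4 at day 10 in KO.

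**Figure D5:**
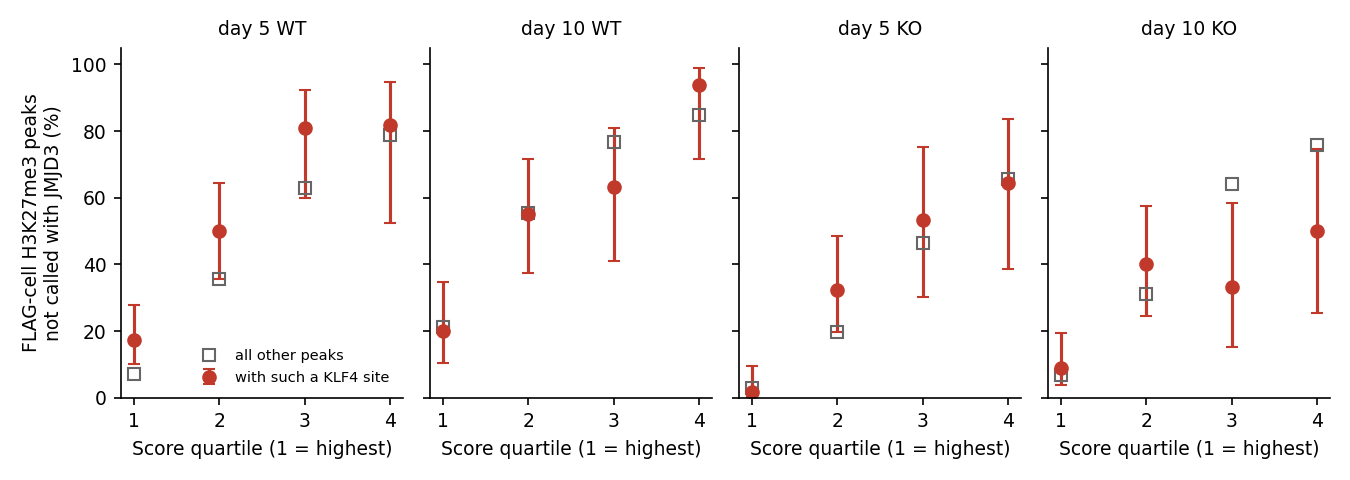
Share of FLAG-cell H3K27me3 peaks (%) with no overlapping peak in JMJD3 cells, by quartile of the FLAG-cell score, for peaks holding a JMJD3-cell-only KLF4 site (red, 95% Wilson intervals) and all other peaks (open squares). The share rises from the highest to the lowest quartile among the other peaks of each pair; at day 5 in WT the red points lie above the squares in 4 of 4 quartiles, while at day 10 in KO they lie below in the 2 lowest.

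The 182 sites marked in WT MEFs or day 5 WT FLAG cells were mostly CpG-rich and close to promoters. Of these, 140 (76.9%) were within 1 kb and 161 (88.5%) within 5 kb of a TSS, and 158 had a protein-coding gene as the nearest. The median CpG count in 200 bp was 19 against 8 in the other sites, and mean GC 69.2% against 58.3%. A KLF match was present in 38 (20.9%, 15.6 to 27.4%), against 29.8% of all JMJD3-cell-only sites and 17.9% of those within 1 kb of a TSS. A JMJD3 position lay within 1 kb of 4 of them.

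Among sites marked in both lists, the 12 with the highest MEF scores lay at Rtbdn, Crhr2, Gm48435, Prok2, Gm26783, Pnma2, Rtn4rl2, Spint1, Vwa2, Dlx4os, Gm26644 and St14. H3K27me3 scores are the peak caller's own, on an unstated scale, and are set side by side only as listed. The site at Rtbdn (chr8:84945694-84945977, 1155 bp upstream of the TSS) overlapped peaks in all 10 lists, with scores in WT of 153.82 in MEFs, 106.72 with FLAG and 100 with JMJD3 at day 5, and 37.83 and 31.58 at day 10. In KO its scores were 56.39 in MEFs, 82.04 and 173.61 at day 5 and 62.06 and 31.67 at day 10, so the order of FLAG and JMJD3 differed between pairs. Crhr2, which encodes a corticotropin-releasing hormone receptor, held a site 30 bp upstream of its TSS and in an intron by the annotation (chr6:55117841-55118044). Its WT scores were 130.47 in MEFs, 92.38 and 29.95 at day 5 with FLAG and JMJD3, and 21.3 and 23.29 at day 10. The site in Prok2, which encodes a secreted prokineticin, was 144 bp into the gene (chr6:99726046-99726371), with WT scores of 102.34, 41.3, 20.22, 19.39 and 8.14 in that order. In KO the Crhr2 scores were 52.25 with FLAG and 65.72 with JMJD3 at day 5 and 24.15 and 35.55 at day 10, and those of Prok2 75.15 and 25.63, and 13.68 and 23.16. At these 3 genes the day 5 score was lower with JMJD3 than with FLAG in WT, and in KO it was higher at Rtbdn and Crhr2 and lower at Prok2.

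Of the 10 epithelial genes with a site, 4 had a marked one, at Spint1, Spint2, St14 and Esrp2. Over all protein-coding genes with a site within 5 kb, 161 of 2426 (6.64%) had a marked one. Spint1, an inhibitor of membrane serine proteases, held a site 85 bp upstream of its TSS (chr2:119237141-119237413). In WT its scores were 93.04 in MEFs, 61.17 with FLAG and 73.81 with JMJD3 at day 5 and 8.56 with FLAG at day 10, with no peak with JMJD3 at day 10. In KO it was at 75.42 and 60.39 at day 5 and at 26.82 and 12.88 at day 10. St14, the epithelial protease matriptase, held a site 42 bp downstream of its TSS, in an exon (chr9:31131715-31131906), with a KLF match. Its scores were 80.29 in WT MEFs and 39.96 in day 5 WT FLAG cells, with no peak in day 5 WT JMJD3 cells, and in KO 12.17 in MEFs, 23.27 with FLAG and 7.89 with JMJD3 at day 5. In WT, Spint1 thus kept a called peak at day 5 with JMJD3 and St14 did not. Spint2 encodes another protease inhibitor and Esrp2 an epithelial splicing regulator. The Esrp2 site was 2 bp from the TSS (chr8:106136881-106137063), with a score of 10.78 in day 5 WT FLAG cells and no peak in WT MEFs or day 5 WT JMJD3 cells. At day 10 it had a peak of 7.74 in WT FLAG cells and of 7.46 in KO JMJD3 cells, with none in their counterparts.

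Of the developmental genes in the gene lists used, a few had a marked site. The site at Hoxd1, an anterior Hox gene (chr2:74762813-74763204, 29 bp from the TSS), had scores in WT of 77.7 in MEFs, 109.16 and 28.38 at day 5 with FLAG and JMJD3, and 76.51 and 36.53 at day 10. In KO it had no peak in MEFs and was at 84.33 and 82.37 at day 5 and at 25.45 and 64.73 at day 10. Fgf15, a growth factor gene, had a site 67 bp from its TSS (chr7:144896324-144896603) with 54.12 in WT MEFs and 51.74 in day 5 FLAG cells. It had no peak with JMJD3 in any of the 4 pairs and peaks of 22.62 to 64.94 in all 4 FLAG lists. The site at Foxi3, a forkhead gene of ectodermal organs (chr6:70956301-70956844), had day 5 scores of 53.6 with FLAG and 72.49 with JMJD3 in WT. In KO the day 5 scores were 95.45 and 200. At day 10 the scores were 45.62 and 17.04 in WT and 27.84 and 33.81 in KO. Wnt2b and Bmp8a, secreted signalling ligands, had peaks in all 10 lists at sites 114 and 6 bp from their TSSs, and the Bmp8a site was 468.5 bp from a FLAG KLF4 midpoint. Tlx2, a homeobox gene, was at 154.27 in WT MEFs and 22.23 in KO MEFs and had no peak in any list of reprogramming cells.

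The sites were spread over many genes. Within 50 kb, 3757 sites had 3472 nearest genes, of which 3225 (92.9%) held 1 site and 247 more. Arntl, a core circadian clock gene, Dlgap4 and Gm25283 held 4 each, and 32 genes held 3, of which AC149054.1 and Agrn, the gene of the matrix proteoglycan agrin, came first by alphabet. At Arntl 2 of 4 sites were within 1 kb of a TSS, and the 4 sites had a median width of 250.5 bp. The 4 sites at Gm25283 held no KLF match and had a median width of 428.5 bp. Within 5 kb of a TSS, 2426 of 21922 protein-coding genes (11.1%) had a JMJD3-cell-only site, and 17.8% had a shared site. Of the 2426 genes, 1884 (77.7%) had no other KLF4 peak of the JMJD3-cell list within 5 kb. The widest sites under 50% soft-masked, 688 to 790 bp, lay at Cox6b2, Setd1a, which encodes an H3K4 methyltransferase, Hspbp1, Gm13830 and Vac14, all within 424 bp of a TSS and without a KLF match.

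Gene groups of interest to reprogramming were counted against the 11.1% background, with Wilson intervals. Of 38 epithelial genes 10 had a site within 5 kb (26.3%, 15.0 to 42.0%), among them Esrp2, St14 and Cgn (cingulin, 56 bp). Of 35 pluripotency genes 8 did (22.9%, 12.1 to 39.0%), among them Pou5f1, Fbxo15 and Mycn. This share and its interval count the delivered factors Pou5f1 and Klf4. Without the delivered factors 6 of 32 did (18.75%), a share whose interval was not computed. Of 31 mesenchymal genes 3 did (9.68%, 3.35 to 24.9%), at Fn1 (fibronectin, 58 bp), Col1a2 and Tgfb3. Shared sites were at 9 epithelial, 5 pluripotency and 5 mesenchymal genes, with 17.8% of all protein-coding genes as their background. These lists were chosen with earlier results known, and their counts are a description.

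Regulators of chromatin and the cell cycle also held sites. Of 27 Polycomb and H3K27 demethylase genes 5 did (18.5%, 8.18 to 36.7%), at Rbbp4 (44 bp), Phc2 (139 bp), Aebp2 (151 bp), Cbx6 (219 bp) and Cbx7. Rbbp4 and Aebp2 encode partners of Polycomb repressive complex 2 and the other 3 subunits of complex 1, and none of the 5 sites was marked in WT MEFs or day 5 WT FLAG cells. Of 16 cell cycle inhibitor genes 4 did (10.2 to 49.5%), at Gadd45g, Rbl1, Trp53 and Cdkn1c. The Cdkn1c site (chr7:143459522-143459831), 1319 bp into the gene for the inhibitor p57, had H3K27me3 scores of 29.05 in WT MEFs and 79.02 in day 5 FLAG cells and no peak in day 5 WT JMJD3 cells. It had peaks in the other JMJD3 lists, of 21.53 at day 10 in WT and of 26.02 and 45.88 at day 5 and day 10 in KO, where FLAG cells were at 49.69 and 28.32. Of 26 KLF and SP family genes 6 did, the closest at Klf17, Klf8, Klf6 and Klf12, with the delivered factor Klf4 among the 6. Of 11 AP-1 genes 1 did, Fos. The interval of the AP-1 share was 1.62 to 37.7%. Shared sites were at more genes of each list, at 9 Polycomb and demethylase, 6 inhibitor, 11 KLF and SP and 4 AP-1 genes. They were also at more of all protein-coding genes, 17.8% against 11.1%, so the higher counts are not read as a trait of these lists.

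Among developmental families, 5 of 39 Hox genes (12.8%), 5 of 88 other homeobox genes (5.68%), 12 of 82 Fox, Gata, Tbx and Sox genes (14.6%) and 6 of 65 Wnt, Fgf, Bmp and hedgehog ligand genes (9.23%) held a site. Among them were Hoxd1, Hoxc13 and Hoxb9, Tlx2, Six5, Lhx4 and Dlx4, Foxi3, Foxo1, Foxd2 and Tbx2, and Bmp8a, Fgf15, Wnt2b and Wnt9a. Marked sites were at 2 of these Hox, 3 other homeobox, 2 Fox, Gata, Tbx and Sox and 3 ligand genes, to be read beside the 6.64% over all genes with a site. Shared sites were at 1 Hox, 6 other homeobox, 7 Fox, Gata, Tbx and Sox and 6 ligand genes. Of 80 ribosomal protein genes 7 held a site (8.75%), among them Rpl31, Rpl18 and Rps25, against 21 with a shared site. Over all protein-coding genes the backgrounds were 11.1% for JMJD3-cell-only and 17.8% for shared sites. Several of the named sites were only just outside the reach of a JMJD3 position, at 407 bp for Rbbp4, 457.5 bp for Fos, 485.5 bp for Foxo1, 492 bp for Trp53, 528 bp for Gadd45g, 539 bp for Rpl18, 547.5 bp for Mycn and 550 bp for Rpl31.

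At 3 sites the called peak lay in an exon of a gene whose coding sequence the cells also carried on a vector. These were in Pou5f1 (chr17:35506161-35506454, 290 bp from the TSS), in Klf4 (chr4:55528123-55528305) and in Kdm6b (chr11:69399818-69400244), and the JMJD3 vector was present only in the JMJD3 cells. Reads from the vector and from the gene cannot be told apart in the lists. The Pou5f1 site had H3K27me3 scores of 7.96 in WT MEFs and 11.89 in day 10 WT JMJD3 cells and no peak in the other WT lists. With less KLF4 virus, a JMJD3 position lay within 400 bp of 34 JMJD3-cell-only sites (0.854%). The share was 0.907% for shared sites and 12.2% for the sites called only in JMJD3 cells next to a JMJD3 position. These sets were chosen by the JMJD3 positions of the other anti-FLAG list, so this contrast largely follows from the selection and is not a result.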

How the data were processed

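Peak lists of 14 of the 20 libraries were used, and the 6 samples without a list (4 inputs and 2 H3K27ac) were not used here. The authors aligned reads to mm10 with bowtie2 (Bowtie2 2.2.0 in the submitters' processing notes, another version in the methods), called H3K27me3 peaks with DFilter and KLF4 and JMJD3 peaks with MACS2, and deposited intervals. Only the H3K27me3 lists carry a usable score as deposited, the caller's own score on a scale that is not stated. KLF4 lists gave no height, so width was the only measure of size. JMJD3 lists hold single positions. Read depth per library is unknown from these files. H3K27me3 reads were normalised to a Drosophila spike-in by the authors, and whether this entered the peak calls was not given in the sources used here.

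Groups came from the labels, 1 library each, so no replicate check and no p-value across sites was possible. Distances ran between midpoints with a limit of 400 bp. H3K27me3 overlap required 1 bp. TSSs, exons and UTRs came from GENCODE M21 basic, and sequence and soft-masking from RefSeq GRCm38.p6. Motifs were exact words in 200 bp around the midpoint, with windows 2 kb away as background. Shares carry 95% Wilson and differences 95% Newcombe intervals (Python 3.11.15, scipy 1.17.1, pysam 0.24.0), and the code was tested on simulated data. Genes were named by rule: up to 4 per list with the smallest distance, the 12 marked sites with the highest MEF score, the 5 genes with most sites and the 5 widest sites. Some genes that the rule names are not reported here. The sites and the 12 gene lists were chosen with earlier results of these data known. Alternatives were other distances, an edge rule, autosomes, unmasked peaks, wider peaks, other TSS and motif definitions, and other H3K27me3 thresholds.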

Additional observations from a re-analysis of the deposited data

How the results depend on the processing

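Of 101 recomputed values, 68 stayed within the interval of the reported value (or, for the number of sites, within 1.5 times), 32 moved outside it, and 1, whose reported interval excluded 0, changed sign. This was the TSS difference, which was 3.76 points among peaks wider than the median. That restriction left 845 sites with a median width of 349 bp, 77.4% within 5 kb of a TSS, a KLF match in 22.0% (difference -7.17 points), and 4.26% and 5.09% in MEF and day 5 FLAG H3K27me3 peaks (differences 2.07 and 2.49 points). The share within 5 kb of a TSS was 65.5% with a rule distance of 200 bp, 60.3% with 800 bp, 64.9% by peak edges, 65.5% for peaks under 50% soft-masked, 54.5% for protein-coding TSSs and 50.6% within 1 kb, where the difference was -8.03 points. The KLF share was 28.1% at 200 bp, 31.3% at 800 bp, 27.8% by peak edges, 40.9% with the shorter core and 32.4% in the whole peak. In the whole peak the difference was -5.93 points, and averaging over width quartiles gave -6.26 points. Reported as -1.83 points, it was -3.11 (-4.86 to -1.36) at 200 bp and -3.35 (-5.08 to -1.62) by edges. For peaks under 50% soft-masked it was -3.35 (-5.26 to -1.42), at 800 bp -0.640 (-2.60 to 1.34) and over TSS classes -0.280.

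Requiring the midpoint inside the H3K27me3 peak gave 2.51% for MEFs and 3.01% for day 5 FLAG cells, a distance of 1 kb 6.38% and 7.53%, and the better-scoring part of each list 2.56% and 2.86%. The day 5 FLAG difference was 2.58 points averaged over width quartiles and 0.731 points over TSS classes. The loss difference, whose reported interval included 0 (-5.22 points), also changed sign, to 0.137 points with H3K27me3 lists of equal length and 11.4 points averaged over score quartiles. The averages over TSS classes and score quartiles were chosen after seeing the data, and the cause of these shifts was not tested. The number of H3K27me3 peaks holding a site, 104 to 143 per list, limits the loss comparisons. No paired analysis was possible because each group had 1 library.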

Other observations

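The share of JMJD3-cell KLF4 peaks that were JMJD3-cell-only sites was 27.7% over all chromosomes. It was highest on chromosome X, with 69 of 192 peaks (35.9%, 29.5 to 42.9%), and lowest on chromosome Y, with 4 of 22 (18.2%, 7.31 to 38.5%). On the autosomes it ran from 22.0% on chromosome 16 to 31.6% on chromosome 7. Over all 10 H3K27me3 lists, 5.98% of the sites were marked in at least 1, and 0.377% in each. Shared sites were at 4.34% and 0.331%, with differences of 1.63 points (0.742 to 2.56) and 0.0453 points (-0.192 to 0.317).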
